A study of Homo sapiens with 10 samples.

Results

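The ZNF genes of chromosome 19 are the protein-coding genes on that chromosome whose symbol is ZNF followed by a number. By their Ensembl identifiers and the GENCODE 44 annotation, 249 of the 60448 genes in the count table met this rule, and 223 of them had enough reads to be tested. RNA-seq was carried out on untreated cells of 2 human endothelial lines, EA.hy926 and HMEC-1, with 5 biological replicates each, and asked how the transcriptomes of the lines differ. EA.hy926 is a hybrid of umbilical vein endothelial cells with the lung carcinoma line A549 and was grown in Advanced DMEM with 5% fetal bovine serum. HMEC-1 comes from dermal microvascular endothelium, carries the SV40 large T antigen and was grown in MCDB 131 with 10% fetal bovine serum, epidermal growth factor at 10 ng/mL and hydrocortisone at 1 µg/mL. Each line was grown in its own medium, so line and medium cannot be told apart in any difference given here, and each stands for 1 established line.

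Most proteins of this family bind DNA through a row of C2H2 zinc fingers and carry a KRAB domain at the amino end. The KRAB domain binds TRIM28 (KAP1), which brings in the histone methyltransferase SETDB1 and HP1 proteins, so that the bound DNA is packed into heterochromatin marked by H3K9 trimethylation. Many members bind transposable elements, and the genes arose by tandem duplication, which is why they lie in clusters along chromosome 19. Zinc finger genes are themselves known to carry the same heterochromatin mark over their last exons.

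Total counts ranged from 34846046 to 39899324 in the EA.hy926 libraries and from 33391640 to 43877224 in those of HMEC-1. Over the genes tested, log2 CPM (prior count of 2) correlated at an r of 0.995 to 0.996 within a line. Between lines r was 0.803 to 0.807. CPM values are counts relative to the library size after TMM scaling, in the usual unit of edgeR. Of 10 endothelial marker genes, 8 were expressed in EA.hy926 (EMCN was off and CLDN5 low) and 10 in HMEC-1. Of the epithelial list, CDH1, ESRP1, GRHL2 and ELF3 were off in both lines, while its 10 genes had sums of 1275 to 1389 CPM in the EA.hy926 libraries, mostly keratins, and 425 to 487 in those of HMEC-1. The 6 fibroblast genes had sums of 0.208 to 0.482 CPM in the EA.hy926 libraries and 451 to 478 in those of HMEC-1, from COL1A1 and COL1A2 with DCN and LUM at 0 counts in all libraries, and the 4 blood genes summed to at most 0.735 CPM. The part of these markers in the results below was not tested.

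A member was called expressed in a line where all 5 libraries reached 1 CPM, off where no library had more than 3 counts, and low otherwise. By this measure HMEC-1 expressed 206 of the 249 members and EA.hy926 132, and 130 members were expressed in both lines. Another 58 members were expressed in HMEC-1 and off in EA.hy926, and 0 members showed the reverse. With expression set at 1 CPM per kilobase of exon, which asks more of long transcripts, these counts were 22 and 0. Among all 19578 protein-coding genes of the table, 1.51% were expressed in HMEC-1 and off in EA.hy926 and 0.715% the other way round. As a share of the genes that a line expressed, 28.2% of the members expressed in HMEC-1 were off in EA.hy926, against 2.63% of all protein-coding genes expressed in HMEC-1, and 1.25% of those expressed in EA.hy926 were off in HMEC-1. In bulk RNA, fewer cells with a transcript and less transcript per cell cannot be told apart, so these states describe the culture as a whole.

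The remaining members were low in at least 1 line or off in both. In HMEC-1 they comprised 25 low members and 18 that were off, and each of the 18 was off in EA.hy926 as well. In EA.hy926, 93 members were off and 73 of them had 0 counts in all 5 libraries, whereas 7 members had 0 counts in all HMEC-1 libraries. Of the members off in EA.hy926, 17 were low in HMEC-1. A further 18 members were expressed in HMEC-1 and low in EA.hy926, 6 were low in both, and only ZNF460 and ZNF547 were expressed in EA.hy926 and low in HMEC-1. ZNF460 missed the limit in 1 HMEC-1 library, at 0.941 CPM, and its ranges overlapped.

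**Figure D1:**
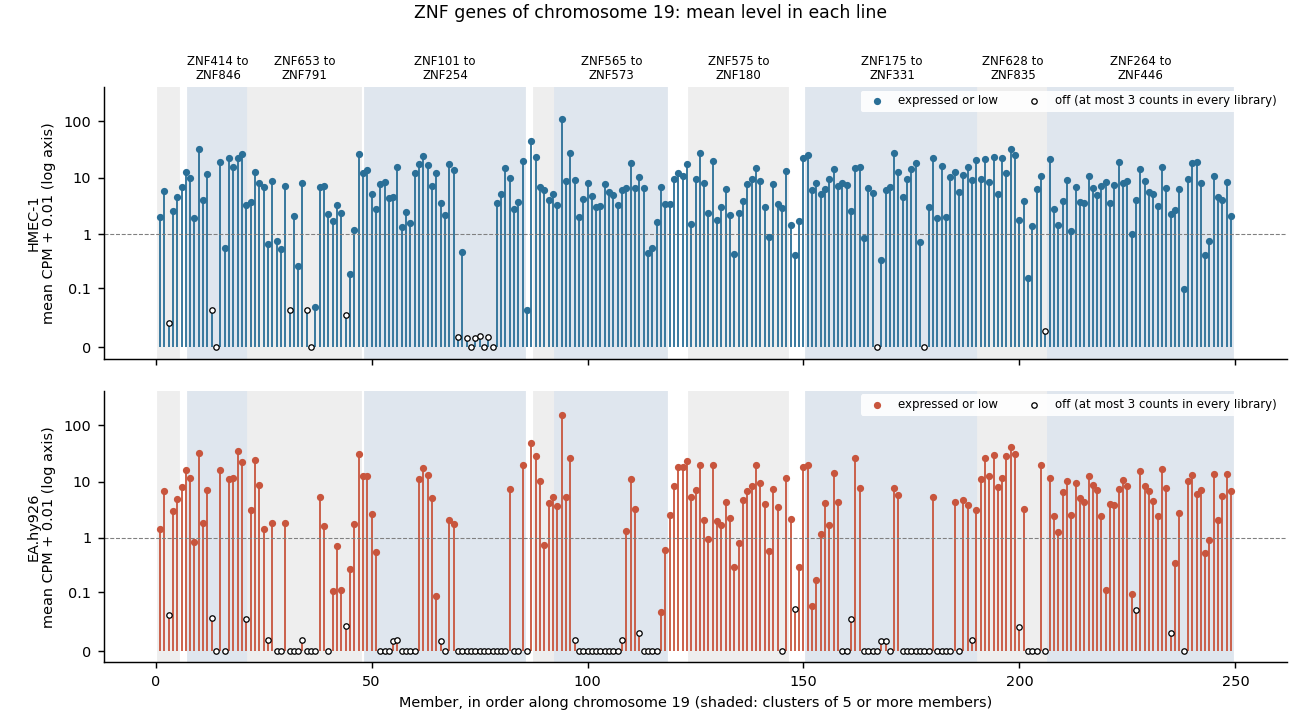
Mean CPM + 0.01 (log axis, n = 5 libraries per line) of each of the 249 members in order along chromosome 19, HMEC-1 above and EA.hy926 below, with shading for clusters of 5 or more members (the larger ones are named), open circles for members with at most 3 counts in every library and a dashed line at 1 CPM. Open circles number 93 in EA.hy926, many of them side by side, and 18 in HMEC-1.

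By the edgeR quasi-likelihood test, called at an adjusted p under 0.05 and a log2 fold change (log2FC, EA.hy926 over HMEC-1) beyond 1 in either direction, 110 members were lower and 4 higher in EA.hy926, and 109 were neither. Over all 16310 genes tested, 16.4% were lower and 19.1% higher. By adjusted p alone 147 members were lower, 47 higher and 29 did not pass, beside 43.3% and 42.6% of all genes tested for lower and higher. The median log2FC was -0.93 over the tested members and -0.01 over all genes tested. The test keeps a gene that is abundant in either line, so a member off in EA.hy926 entered it through its HMEC-1 counts, and the 26 untested members had mean levels of at most 0.466 CPM (ZNF793 in HMEC-1). Among the 144 members with at least 10 counts in every library, 32 were lower and 4 higher with a median log2FC of -0.13, beside 10.8% lower and 14% higher of all genes with such counts.

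For 142 members every EA.hy926 library lay below every HMEC-1 library in CPM, for 35 members the order was the reverse, and for 72 the ranges overlapped. Of all genes tested, 39.2% and 38.3% were apart in these directions, while the member counts also include the 26 untested members. On the lower side, the members next to the fold threshold were ZNF480 (log2FC -1.03) and ZNF527 (-1.003) inside it and ZNF426 (-0.98) and ZNF14 (-0.93) outside, and on the higher side ZNF547 (1.14) lay inside and ZNF627 (0.94) outside. For comparison, 18 of the 1205 other protein-coding genes of chromosome 19 were expressed in HMEC-1 and off in EA.hy926 and 4 the reverse. Of these other genes, 746 were tested, of which 114 were lower and 101 higher. Of the 265 ZNF genes of other chromosomes, 12 were expressed in HMEC-1 alone and 3 in EA.hy926 alone, and among the 233 tested, 50 were lower and 21 higher. The differences between these groups of genes were not tested.

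**Figure D2:**
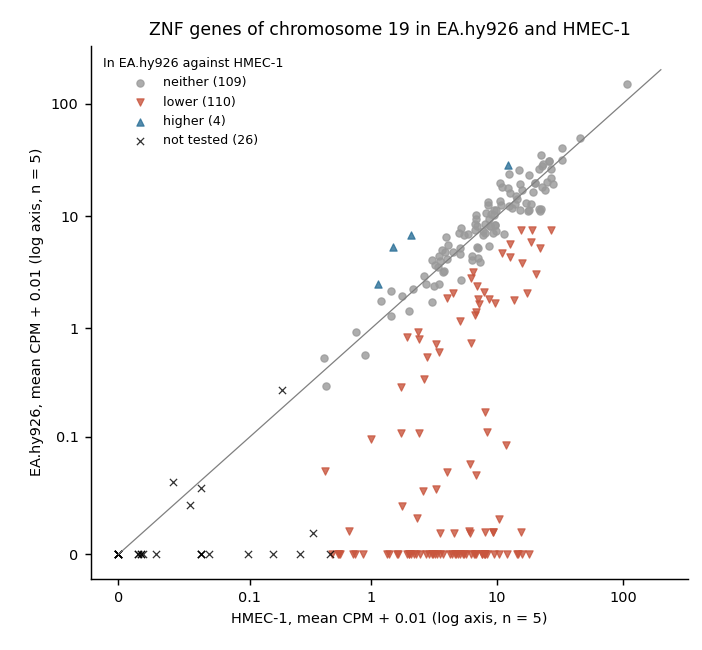
Mean CPM + 0.01 of each member in HMEC-1 (horizontal, log axis) and EA.hy926 (vertical, log axis), n = 5 libraries per line, with the line of equal levels and symbols for the test result. The 109 members that were neither higher nor lower lie along the diagonal, while many of the 110 lower members lie on the bottom edge, at 0 in EA.hy926 and up to 17.9 CPM in HMEC-1.

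The 58 members expressed in HMEC-1 and off in EA.hy926 had mean levels of 1.33 to 17.9 CPM in HMEC-1 (median 4.86), and 44 of them had 0 counts in all 5 EA.hy926 libraries. Set against 3 counts in the smallest EA.hy926 library, their EA.hy926 levels were lower by at least 14.7-fold to at least 198-fold (median of the bounds 53.8). These bounds cover counting error alone. A log2FC fitted against a line at 0 depends on the prior count, so for these members the bound is given in its place. All 58 were called lower, which follows from how they were chosen, so no p-value is given for them.

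ZNF320 had the highest CPM of the 58. Its HMEC-1 libraries held 652, 778, 777, 703 and 685 counts, and each EA.hy926 library held 0. The lines did not overlap, and the EA.hy926 level was lower by at least 198-fold (17.9 ± 0.918 CPM in HMEC-1, SD, n = 5). ZNF347 followed with 539, 597, 753, 632 and 669 counts in HMEC-1 against 0 in every EA.hy926 library, at least 176-fold lower. ZNF486 held 567, 642, 722, 639 and 558 counts in HMEC-1 and 1 count in a single EA.hy926 library, at least 172-fold lower. All 3 genes encode KRAB zinc finger proteins, and each had at least 539 counts in every HMEC-1 library.

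**Figure D3:**
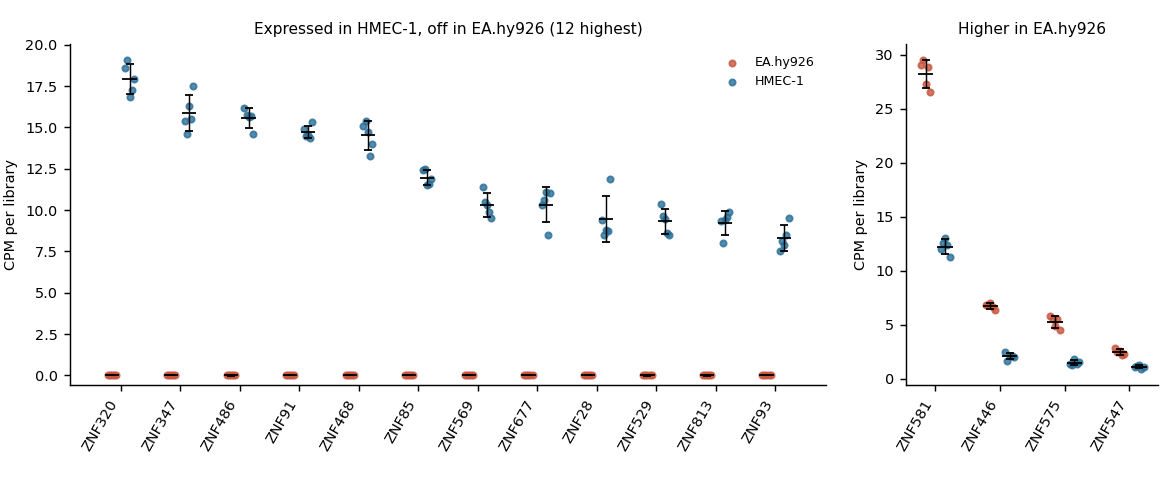
CPM in each library (points) with the mean and SD of 5 libraries (bars) for the 12 members with the highest level among those expressed in HMEC-1 and off in EA.hy926 (left) and for the 4 members called higher in EA.hy926 (right), on linear axes with separate scales. On the left all EA.hy926 points lie at or next to 0 and the HMEC-1 points reach 19.1, and on the right the lines are apart with EA.hy926 on top.

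By position, a new group was opened wherever the gap to the next member exceeded 500 kb. This gave 10 clusters of at least 5 members, holding 235 members in all, and 14 scattered members. Members that were expressed in HMEC-1 and off in EA.hy926 were concentrated in 3 clusters. These held 18 of 40 members in ZNF175 to ZNF331, 16 of 37 in ZNF101 to ZNF254 and 15 of 26 in ZNF565 to ZNF573. The other 9 lay in 5 clusters, with 3 of 26 in ZNF653 to ZNF791, 2 of 16 in ZNF628 to ZNF835 and 2 of 43 in ZNF264 to ZNF446. ZNF414 to ZNF846 had 1 of 14 and ZNF575 to ZNF180 had 1 of 23. The clusters ZNF554 to ZNF77 and ZNF302 to ZNF792 and the scattered members had 0.

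**Figure D4:**
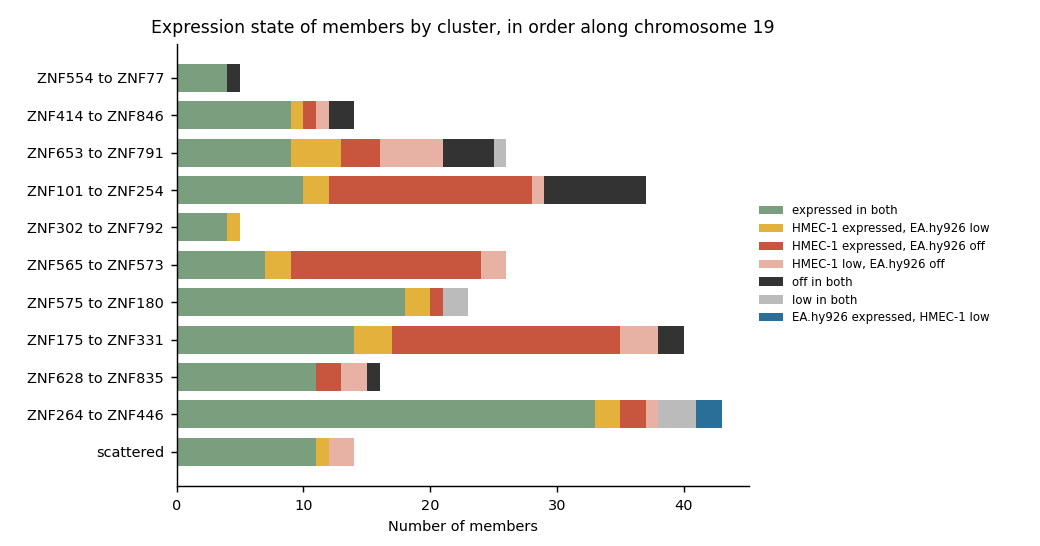
Number of members in each expression state (colours) in the 10 clusters, from the short-arm end of chromosome 19 at the top, and among the 14 scattered members. The segments for members expressed in HMEC-1 and off in EA.hy926 are longest in ZNF175 to ZNF331 (18), ZNF101 to ZNF254 (16) and ZNF565 to ZNF573 (15).

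The cluster from ZNF101 to ZNF254 (chr19:19668796-24129968, GRCh38) holds 37 members, 31 of which have the KRAB pattern described further on. Of its 29 tested members 21 were lower and 0 higher in EA.hy926, and 8 members were off in both lines. Among its 11 members with at least 10 counts in every library, 3 were lower (median log2FC -0.48). Its members summed to 93.5 ± 2.40 CPM in EA.hy926 and 254 ± 3.18 in HMEC-1 (SD, n = 5). It contained the repressors of retrotransposons ZNF91 and ZNF93. ZNF91, which represses SVA elements, had 522, 590, 672, 586 and 585 counts in the HMEC-1 libraries and 0 in each EA.hy926 library, at least 163-fold lower. ZNF93, which represses L1 elements, had 264, 332, 364, 345 and 364 counts in HMEC-1 and 0 in each EA.hy926 library, at least 91.9-fold lower.

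Of the 25 members of this cluster that were off in EA.hy926, 21 lay in 2 runs, and the others were ZNF493, ZNF429, ZNF681 and ZNF726. From ZNF253 to ZNF85, 9 consecutive members over 1085 kb were off in EA.hy926 and expressed in HMEC-1, and together they held 0 or 1 count in each EA.hy926 library against sums of 2076 to 2688 in the HMEC-1 libraries. ZNF85 itself held 435, 510, 531, 471 and 454 counts in HMEC-1 and 0 in EA.hy926, at least 132-fold lower. The next member, ZNF430, was expressed in every library of both lines, at 11.1 ± 1.17 CPM in EA.hy926 and 17.5 ± 1.19 in HMEC-1. A second run, from ZNF208 to ZNF91, joined 12 members over 1463 kb with 0 counts in all EA.hy926 libraries. Of these, 3 members (ZNF730, ZNF724 and ZNF91) were expressed in HMEC-1, 1 was low and 8 were off there as well.

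Both neighbours of the run from ZNF208 to ZNF91 were expressed in EA.hy926. ZNF43 on one side had 62, 52, 69, 73 and 66 counts against 484, 545, 592, 543 and 555 in HMEC-1 (log2FC -2.93 ± 0.077, SE, adjusted p = 5.0e-19). ZNF675, an inhibitor of TRAF6 signalling, lies on the other side and had 292, 233, 250, 281 and 274 counts in EA.hy926 against 340, 378, 418, 412 and 407 in HMEC-1, a log2FC of -0.41 ± 0.064. ZNF254 near the end of the cluster had the highest CPM per kilobase of exon in it (as a mean over both lines, here and for the clusters that follow), with 19.7 ± 1.37 CPM in EA.hy926 and 20.1 ± 0.739 in HMEC-1, and its ranges overlapped (adjusted p = 0.60). ZNF100, next to ZNF43, was the member with the lowest log2FC among those expressed in both lines (-3.06 ± 0.079).

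ZNF91 and ZNF675 are neighbours among the members and differed in state, so the 250 bases before their starts are shown, as RefSeq gives them on GRCh38.p14, with CpG dinucleotides in capitals. Both genes are on the minus strand, at chr19:23395472-23395721 and chr19:23687213-23687462. The sequences hold 7 and 6 CpG dinucleotides and share an identical run of 43 bases.
ZNF91: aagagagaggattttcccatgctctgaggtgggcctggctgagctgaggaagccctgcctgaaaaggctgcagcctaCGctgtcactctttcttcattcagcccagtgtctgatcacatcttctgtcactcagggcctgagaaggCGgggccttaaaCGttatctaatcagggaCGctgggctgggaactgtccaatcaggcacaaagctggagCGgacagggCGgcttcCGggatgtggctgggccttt
ZNF675: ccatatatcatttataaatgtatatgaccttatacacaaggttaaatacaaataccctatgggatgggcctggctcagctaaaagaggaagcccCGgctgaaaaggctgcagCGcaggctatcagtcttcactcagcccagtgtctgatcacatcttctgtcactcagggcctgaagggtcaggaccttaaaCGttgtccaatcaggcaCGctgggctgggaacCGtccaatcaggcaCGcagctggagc

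The cluster from ZNF565 to ZNF573 (chr19:36182276-37817300) holds 26 members. Of the 25 tested, 20 were lower and 0 higher in EA.hy926. Among its 8 members with at least 10 counts in every library, 3 were lower. The summed level was 202 ± 6.51 CPM in EA.hy926 against 270 ± 2.85 in HMEC-1, of which ZNF146 alone accounted for 149.9 in EA.hy926. ZNF146, a protein of zinc fingers without a KRAB domain, was the member with the highest CPM per kilobase in both lines (36.2 in EA.hy926 and 26.02 in HMEC-1). Its EA.hy926 libraries stood at 153, 152, 156, 142 and 147 CPM and its HMEC-1 libraries at 109, 112, 106, 105 and 107. The lines did not overlap, and the log2FC of 0.48 ± 0.029 was within the fold threshold (adjusted p = 1.8e-12). ZNF260, a neighbour of the run described next, was at 26.1 ± 1.44 CPM in EA.hy926 and 27.1 ± 0.331 in HMEC-1, with overlapping ranges.

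Directly after ZNF260, 12 consecutive members from ZNF529 to ZNF585B, over 683 kb, were off in EA.hy926 and expressed in HMEC-1. Their counts added up to 0 or 1 in the EA.hy926 libraries and to between 2237 and 3008 in those of HMEC-1. ZNF529 had 364, 393, 436, 350 and 325 counts in HMEC-1 and a single count in 1 EA.hy926 library, at least 103-fold lower, and 24.0% of its exonic bases are shared with other genes, chiefly its antisense transcript. ZNF567 had 304, 328, 406, 310 and 280 counts in HMEC-1 and 0 in EA.hy926, at least 89.5-fold lower. ZNF382, which is reported silenced by promoter methylation in carcinomas, had 69, 92, 86, 82 and 73 counts in HMEC-1 and 0 in EA.hy926, at least 22.1-fold lower. ZNF585A and ZNF585B are near-identical copies, so the split of reads between them is uncertain, but together they held at most 1 count in any EA.hy926 library.

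The run ended at ZNF383, which was expressed in both lines, at 1.33 ± 0.0975 CPM in EA.hy926 and 6.69 ± 0.678 in HMEC-1 (log2FC -2.32). A further run of 5 members from ZNF569 to ZNF571 was off in EA.hy926, of which 3 were expressed and 2 low in HMEC-1. ZNF569 had 400, 428, 475, 404 and 363 counts in HMEC-1 and at most 1 count in an EA.hy926 library, at least 114-fold lower.

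To show an expressed and a silent member of this cluster beside each other, the 250 bases before ZNF146 (plus strand, chr19:36214856-36215105) and ZNF567 (plus strand, chr19:36666684-36666933) are given in the same form. They hold 17 and 14 CpG dinucleotides. The RefSeq start of ZNF567 lies upstream of the gene's start in GENCODE 44.
ZNF146: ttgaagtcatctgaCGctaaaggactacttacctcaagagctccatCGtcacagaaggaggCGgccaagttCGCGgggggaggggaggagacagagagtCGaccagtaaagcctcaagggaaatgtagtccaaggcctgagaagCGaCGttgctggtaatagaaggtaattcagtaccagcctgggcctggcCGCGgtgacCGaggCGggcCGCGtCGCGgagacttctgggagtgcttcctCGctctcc
ZNF567: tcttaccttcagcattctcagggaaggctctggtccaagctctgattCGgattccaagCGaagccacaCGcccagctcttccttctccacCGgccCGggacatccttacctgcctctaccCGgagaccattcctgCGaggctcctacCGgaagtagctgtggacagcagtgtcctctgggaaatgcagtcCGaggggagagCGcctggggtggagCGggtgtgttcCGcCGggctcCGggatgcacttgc

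The cluster from ZNF175 to ZNF331 (chr19:51571283-53580269) holds 40 members, 39 with the KRAB pattern. Of the 37 tested, 32 were lower and 0 higher in EA.hy926. Among its 15 members with at least 10 counts in every library, 10 were lower. This cluster had the greatest gap in summed level, 113 ± 3.07 CPM in EA.hy926 against 374 ± 5.36 in HMEC-1 (SD, n = 5), or 30.3% of the HMEC-1 level. Of its 23 members off in EA.hy926, 21 lay in 4 runs, and the others were ZNF525 and ZNF813. The run from ZNF600 to ZNF816 had 7 members on the minus strand with 0 counts in all EA.hy926 libraries, while the HMEC-1 libraries held 1824 to 2240 for the run. It contained ZNF320, with ZNF468 (530, 629, 680, 542 and 535 counts in HMEC-1, at least 161-fold lower) and ZNF28 (330, 347, 405, 355 and 455 counts, at least 105-fold lower).

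The other runs of this cluster were ZNF841 to ZNF836 with 3 members, ZNF610 to ZNF701 with 7 and ZNF415 to ZNF677 with 4. ZNF841 had 284, 327, 390, 312 and 305 counts in HMEC-1 and 0 in EA.hy926, at least 89.0-fold lower. ZNF677, another member reported silenced by promoter methylation in carcinomas, had 362, 432, 512, 347 and 422 counts in HMEC-1 and 0 in EA.hy926, at least 114-fold lower. ZNF813, outside these runs, held 328, 326, 433, 391 and 377 counts in HMEC-1 and 1 count in a single EA.hy926 library, at least 102-fold lower.

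Outside the runs, several members of this cluster were detected in EA.hy926 at lower levels than in HMEC-1. ZNF83 stood at 7.85, 7.23, 7.12, 8.09 and 7.73 CPM in EA.hy926 and 27.6, 25.9, 27.8, 26.4 and 27.4 in HMEC-1 (log2FC -1.83 ± 0.049, adjusted p = 8.0e-19). ZNF331, an imprinted gene, stood at 3.03, 3.22, 2.71, 3.15 and 3.29 CPM in EA.hy926 and 19.96, 20.4, 20.5, 21.1 and 20.1 in HMEC-1 (log2FC -2.73 ± 0.060, adjusted p = 2.4e-20). ZNF649, a transcriptional repressor, was low in EA.hy926, with 9, 4, 10, 5 and 3 counts against 283, 307, 393, 339 and 303 in HMEC-1 (log2FC -5.53 ± 0.16). In each of these genes the lines were apart.

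By adjusted p alone, 35 of the tested members of this cluster were lower, 1 was higher and 1 did not pass. The last of these, ZNF614, was at 14.2 ± 0.473 CPM in EA.hy926 and 14.4 ± 1.03 in HMEC-1 with overlapping ranges, and the higher one, ZNF766, was at 25.7 ± 1.56 against 14.9 ± 0.965 (log2FC 0.78 ± 0.053). Members lower in EA.hy926 but within the fold threshold included ZNF175 and ZNF350. ZNF175, a repressor of the HIV-1 promoter and the member with the highest mean CPM per kilobase in the cluster, was at 20.02 ± 0.366 against 25.02 ± 1.22 CPM (log2FC -0.32 ± 0.042). ZNF350, a partner of BRCA1, was at 4.10 ± 0.388 against 6.33 ± 0.552 CPM (log2FC -0.63 ± 0.087).

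The 250 bases before ZNF320 (minus strand, chr19:52897695-52897944), silent in EA.hy926, and ZNF761 (plus strand, chr19:53431734-53431983), which was expressed in both lines with a log2FC of -2.03 ± 0.076, are given as above. They hold 16 and 21 CpG dinucleotides.
ZNF320: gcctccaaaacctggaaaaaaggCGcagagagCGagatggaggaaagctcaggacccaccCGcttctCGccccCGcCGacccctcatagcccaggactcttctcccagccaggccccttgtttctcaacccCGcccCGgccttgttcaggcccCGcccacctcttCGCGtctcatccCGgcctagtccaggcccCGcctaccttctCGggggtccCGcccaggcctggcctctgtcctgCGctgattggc
ZNF761: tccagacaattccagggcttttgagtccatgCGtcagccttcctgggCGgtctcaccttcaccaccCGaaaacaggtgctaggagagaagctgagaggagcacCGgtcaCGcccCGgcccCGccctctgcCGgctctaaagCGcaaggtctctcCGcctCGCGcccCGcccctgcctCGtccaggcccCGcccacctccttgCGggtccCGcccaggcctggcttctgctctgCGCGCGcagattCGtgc

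In the other 7 clusters silent members were fewer. The cluster from ZNF653 to ZNF791 (26 members) had 13 lower and 0 higher of 19 tested. Among its 11 members with at least 10 counts in every library, 5 were lower. A run of 7 members from ZNF763 to ZNF625 was off in EA.hy926, though 3 of these were off and 2 low in HMEC-1 too. In that run, ZNF844 had 305, 307, 372, 319 and 309 counts in HMEC-1 and 1 count in a single EA.hy926 library, at least 89.0-fold lower, with 45.3% of its exonic bases shared with other genes. The members on either side of the run were expressed in both lines, ZNF700 lower in EA.hy926 (log2FC -1.94) and ZNF136 within the fold threshold (-0.39). Elsewhere in the cluster ZNF441, ZNF440 and ZNF44 were expressed in both lines and lower in EA.hy926 (log2FC -2.28, -2.24 and -2.15). ZNF627, with the highest CPM per kilobase in the cluster, was at 23.9 ± 0.981 CPM in EA.hy926 and 12.4 ± 0.848 in HMEC-1, a log2FC of 0.94 ± 0.051 that fell just under the fold threshold.

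In the cluster ZNF554 to ZNF77 none of the 5 members was called by the edgeR test (by adjusted p alone, 1 was higher and 1 lower), and ZNF77 was at 4.85 ± 0.576 CPM in EA.hy926 and 4.47 ± 0.253 in HMEC-1 with overlapping ranges. In ZNF414 to ZNF846, 4 of the 12 tested were lower (9 by adjusted p alone, median log2FC -0.57). Among its 10 members with at least 10 counts in every library, 2 were lower. The summed level was 148 ± 1.86 CPM in EA.hy926 against 169 ± 2.02 in HMEC-1. ZNF317 was at 31.5 ± 1.37 CPM in EA.hy926 and 32.6 ± 1.78 in HMEC-1 with overlapping ranges. ZNF846 at the end of that cluster was its single member expressed in HMEC-1 and off in EA.hy926 (3.25 ± 0.115 CPM in HMEC-1, at least 36.0-fold lower). In ZNF302 to ZNF792, on the long arm, 1 of the 5 members was lower, ZNF599, and ZNF302 was at 27.9 ± 1.04 against 22.9 ± 0.689 CPM (log2FC 0.28 ± 0.040).

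In the cluster from ZNF575 to ZNF180, 18 of the 23 members were expressed in both lines, 4 were lower and 1 higher. Among the 21 members with at least 10 counts in every library, 3 were lower and 1 higher. ZNF229 was the only one there that was off in EA.hy926, with 111, 96, 112, 135 and 125 counts in HMEC-1, at least 32.2-fold lower. ZNF224, a partner of WT1, was at 4.76 ± 0.606 CPM in EA.hy926 and 3.86 ± 0.387 in HMEC-1 with overlapping ranges (log2FC 0.30 ± 0.10, adjusted p = 0.0086). ZNF428 had the highest CPM per kilobase of the cluster and was at 19.4 ± 1.34 against 27.7 ± 0.906 CPM (log2FC -0.51 ± 0.047), with 32.1% of its exonic bases shared with other genes.

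The cluster from ZNF628 to ZNF835 was one of the few with a higher summed level in EA.hy926, 221 ± 4.37 CPM against 185 ± 3.24 in HMEC-1. Of its 14 tested members, 3 were lower and 1 higher by both thresholds. By adjusted p alone 9 were higher and 4 lower. Among its 11 members with at least 10 counts in every library, 0 were lower and 1 higher. Many genes at its start encode zinc finger proteins without a KRAB domain, such as ZNF787 (40.4 ± 1.55 CPM in EA.hy926 and 32.8 ± 1.33 in HMEC-1, log2FC 0.30 ± 0.038). ZNF580, which is induced by VEGF in endothelial cells, was lower in EA.hy926 by adjusted p but short of the fold threshold, at 11.7, 11.99, 11.1, 11.4 and 12.2 CPM against 21.1, 22.5, 21.2, 21.8 and 24.4 in HMEC-1 (log2FC -0.93 ± 0.051). ZNF580 and ZNF581 overlap each other, so their reads may be shared. Toward the end of the cluster the run from ZNF667 to ZNF470 was off in EA.hy926.

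That run held ZNF667 and ZNF471, both reported silenced by promoter methylation in carcinomas. ZNF471 had 48, 36, 70, 71 and 53 counts in HMEC-1 and 0 in EA.hy926, at least 15.3-fold lower, while ZNF667 was not tested, with 5, 8, 7, 8 and 4 counts in HMEC-1 and 0 in EA.hy926. ZNF470 had 198, 255, 298, 281 and 223 counts in HMEC-1 and 0 in EA.hy926, at least 68.8-fold lower.

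In the cluster from ZNF264 to ZNF446, at the long-arm end, 33 of the 43 members were expressed in both lines. Of 42 tested, 10 were lower and 2 higher. Among its 37 members with at least 10 counts in every library, 5 were lower and 2 higher. ZNF671, also reported silenced by promoter methylation in carcinomas, had 1, 0, 3, 2 and 2 counts in EA.hy926 and 135, 175, 202, 154 and 151 in HMEC-1, at least 44.8-fold lower. ZNF274, which brings SETDB1 to the ends of zinc finger genes, was at 13.6, 13.1, 12.2, 13.4 and 12.3 CPM in EA.hy926 and 20.4, 18.8, 17.8, 18.2 and 17.9 in HMEC-1 (log2FC -0.52 ± 0.052). ZNF304 was at 10.4 ± 0.742 against 8.97 ± 0.552 CPM with overlapping ranges (log2FC 0.21 ± 0.064), and ZNF776, with the highest CPM per kilobase of the cluster, at 15.1 ± 0.357 against 14.1 ± 0.631 (adjusted p = 0.062). Among the scattered members, ZNF507 was at 49.0 ± 2.40 against 45.3 ± 2.42 CPM with overlapping ranges (log2FC 0.11 ± 0.040), and ZNF536, known from neurons, had 0 counts in EA.hy926 and at most 4 in HMEC-1.

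**Figure D5:**
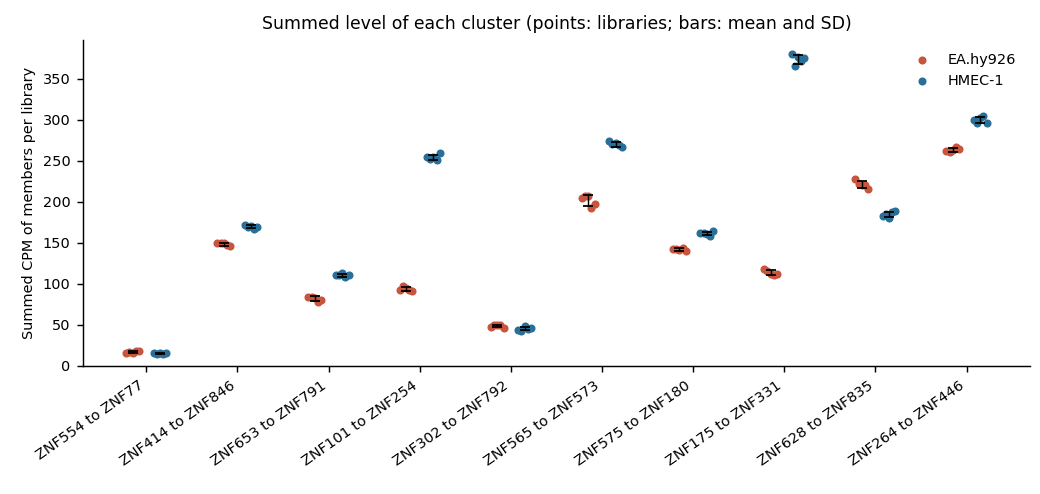
Summed CPM of the members of each cluster in each library (points) with the mean and SD of 5 libraries (bars), from 0. The sums in ZNF101 to ZNF254 (93.5 in EA.hy926, 254 in HMEC-1) and ZNF175 to ZNF331 (113 and 374) are furthest apart, and in ZNF628 to ZNF835 the EA.hy926 sum (221) lies above that of HMEC-1 (185).

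Over all members the summed level was 1505 ± 19.4 CPM in EA.hy926 and 2042 ± 14.6 in HMEC-1 (SD, n = 5), so that EA.hy926 stood at 73.7% of HMEC-1, and the libraries of the lines did not overlap (1480 to 1525 against 2020 to 2054). Most of the members expressed in both lines were close in level. Of these 130, 24 were lower, 3 higher and 103 neither, 75 had a log2FC under 0.5 in either direction, and their median log2FC was -0.08. By adjusted p alone 59 of the 130 were lower, 45 higher and 26 did not pass.

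The 4 members called higher in EA.hy926 were ZNF575, ZNF581, ZNF446 and ZNF547. ZNF575 stood at 5.85, 5.54, 4.87, 5.57 and 4.53 CPM in EA.hy926 and 1.37, 1.30, 1.84, 1.37 and 1.57 in HMEC-1 (log2FC 1.81 ± 0.12, adjusted p = 4.2e-12). ZNF446 stood at 6.82, 6.84, 7.06, 6.66 and 6.36 CPM against 2.48, 1.69, 2.10, 2.16 and 2.04 (log2FC 1.69 ± 0.094, adjusted p = 3.2e-13). ZNF581 stood at 29.0, 29.5, 27.3, 28.9 and 26.5 CPM against 12.01, 12.5, 13.01, 12.4 and 11.3 (log2FC 1.20 ± 0.048, adjusted p = 9.3e-16). The lines were apart in all 3, but 60.4% of the exonic bases of ZNF446 and 24.9% of those of ZNF581 are shared with other genes, so that their counts are uncertain. ZNF547 stood at 2.90, 2.50, 2.62, 2.19 and 2.34 CPM against 1.08, 1.20, 1.28, 0.957 and 1.13 (log2FC 1.14 ± 0.13, adjusted p = 7.3e-08).

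In all, 10 runs of at least 3 consecutive members that were off in EA.hy926 held 69 of the 93 such members, and the longest runs had 12. Of the 229 pairs of neighbouring members within a position group, both were off in EA.hy926 in 63. Neither was off in 112 and only 1 of them in 54. In HMEC-1 these counts were 8, 202 and 19. More members were off in EA.hy926 (93) than in HMEC-1 (18), which by itself gives more pairs with both off. Within the runs, 3 other genes had at least 10 counts in every EA.hy926 library, all of them processed pseudogenes (ENSG00000213985, RPL37P23 and NDUFV2P1), whose reads may come from their parent genes. Transcripts inside the runs with 0 counts in EA.hy926 and at least 10 in every HMEC-1 library included ZNF788P, IPO5P1, ZNF528-AS1, ZNF567-DT and ZNF571-AS1. Of the exonic bases of ZNF788P, 96.9% are shared with other genes, so its counts are uncertain. In the others named here the share was at most 11.8%.

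Zinc finger genes of the same clusters without a ZNF number numbered 16, of which 9 were tested, 6 were lower and 1, ZSCAN5A, higher in EA.hy926. The 5 named by fold were ZFP30, ZFP28, ZIK1, ZFP82 and ZFP14, each with 0 counts in every EA.hy926 library. Against the same bound they were at least 141-, 66.7-, 66.2-, 63.2- and 58.5-fold lower, from 12.7 ± 0.756, 6.03 ± 0.631, 5.99 ± 0.439, 5.71 ± 0.498 and 5.29 ± 0.540 CPM in HMEC-1 (SD, n = 5). ZFP14, ZFP82 and ZFP30 lie in the cluster from ZNF565 to ZNF573, and ZFP28 lies inside the run from ZNF667 to ZNF470.

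In the protein of each member's canonical transcript in GENCODE 44, the C2H2 pattern was found 0 to 36 times (median 12), and a short pattern of the KRAB A box was found in 192 of the 249 members. Of the 159 members with the KRAB pattern that were expressed in HMEC-1, 55 were off in EA.hy926, and of the 47 without it, 3 were off. By the test, 100 of the members with the pattern were lower, 1 higher, 70 neither and 21 not tested, and of those without it 10 were lower, 3 higher, 39 neither and 5 not tested. Diverged KRAB boxes escape the pattern, so a protein without a match may still hold one. This difference between members was not tested.

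Promoters were matched in RefSeq (GRCh38.p14) for 218 of the 249 members. The 250 bases before the start held a median of 16 CpG dinucleotides over the matched members, 16.5 for those expressed in both lines, 15 for those expressed in HMEC-1 and off in EA.hy926, and 12 for those off in both, beside 11 over all 27305 promoters of the table. The observed over expected CpG ratio had medians of 0.77, 0.63 and 0.57 in the same 3 groups and 0.56 over all promoters. The letters CCGGAAG, a sequence that ETS factors bind, were searched on both strands and occurred in 31.7% of the members' windows and 8.82% of all. The share was 30.8% (37 of 120 windows) for members expressed in both lines and 37.7% (20 of 53) for those expressed in HMEC-1 and off in EA.hy926. It was 14.3% (2 of 14) for those low in HMEC-1 and off in EA.hy926, and 45.5% (5 of 11) for those off in both. The CpG medians of these groups rest on the same windows. The ZNF91 and ZNF567 windows printed above hold it. No letters say whether a factor bound there.

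The listed cofactors of silencing, among them partners of KRAB zinc finger proteins, were expressed in both lines. All 23 genes of the cofactor list reached 1 CPM in every library and 0 of 23 passed both thresholds of the edgeR test. By adjusted p alone 8 were higher and 13 lower in EA.hy926. Over all genes tested, 19.1% were higher and 16.4% lower by both thresholds, and 42.6% and 43.3% by adjusted p alone. TRIM28 was at 492 ± 21.9 CPM in EA.hy926 and 346 ± 10.98 in HMEC-1 (log2FC 0.51 ± 0.031), and SETDB1 at 18.4 ± 0.727 against 22.6 ± 0.615 (log2FC -0.30 ± 0.043). The most negative values were those of MPHOSPH8, a subunit of the HUSH silencing complex (log2FC -0.99 ± 0.033), and the DNA methyltransferase DNMT3B (-0.87 ± 0.057).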

How the data were processed

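RNA-seq libraries of EA.hy926 and HMEC-1 cells without treatment, 5 of each line, were grouped by their labels. The authors selected mRNA with oligo(dT), aligned the reads to GRCh38 and deposited raw counts per gene, without normalization. Counting is given as HTSeq in the study's methods, while the submitters' processing notes list fastp, HISAT2, featureCounts and DESeq2. The annotation release, strand setting and treatment of reads with several matches are not given in the sources used here, so counts of overlapping genes and close paralogs are uncertain.

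Identifiers were matched to GENCODE 44 for 56434 genes (93.4%). Exons shared with other genes on any strand were found by bedtools 2.31.1, and 37 members shared over 20% of exonic bases (3 were readthrough genes). Counts were filtered with filterByExpr, scaled by TMM factors (0.942 to 0.964 in EA.hy926, 1.04 to 1.05 in HMEC-1) and tested by the quasi-likelihood method of edgeR (version 4.0.16, R version 4.3.3), with Benjamini-Hochberg adjustment over all genes tested. The SE of each log2FC was back-calculated as the absolute log2FC over the square root of the quasi-likelihood F statistic. The study used limma. Here limma-voom (3.58.1), DESeq2 (1.42.0), other filters and scalings, a replicate block and each library left out in turn were alternatives. The 3-count limit equals 0.0651 to 0.0904 CPM per library. On simulated counts of 16019 genes, 200 of 200 changed 3-fold were called by edgeR with 1 false call, and by limma-voom and DESeq2 with 2 and 0. The C2H2 pattern was 2 cysteines 2 to 4 residues apart, then 12 residues, then 2 histidines 3 to 5 apart, in translated GENCODE 44 coding sequences.

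Members named were those past both thresholds with the 10 lowest and up to 10 highest log2FC, the 12 with the highest CPM among those expressed in 1 line and off in the other, the member of each cluster highest in CPM per kilobase, and 22 with a known role, together 44. Other members named, and the promoters printed, were chosen after their values were seen. The members and lists were chosen with earlier results of these data known.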

Additional observations from a re-analysis of the deposited data

Results flagged for a closer look

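In 64 groups of 5 libraries, 1 for each named member in each line with enough counts, the highest or lowest library was compared with the others by Dixon's criterion, which chance passes in about 1 of 20 groups, and 3 groups passed. All were in HMEC-1. ZNF175 was at 22.9 CPM in replicate 5, below the other libraries (25.3 to 26.1). ZNF28 was at 11.9 CPM in replicate 5, above the others (8.505 to 9.41). ZNF813 was at 7.99 CPM in replicate 2, below the others (9.35 to 9.86).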

How the results depend on the processing

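The count of 110 lower and 4 higher members was the same with DESeq2, limma-voom, RLE factors and the replicate block (110 and 4), and all 110 were shared. Without a filter on low counts 120 of 242 tested members were lower, with unscaled library totals 115 (all genes then shifted by -0.13 in median log2FC), and without each library in turn 109 to 113, with 4 higher throughout. A demand for at least 10 counts in every library left 31 lower, since it removes members off in a line. Without members over 20% overlapped, 103 were lower and 2 higher. Members expressed in HMEC-1 and off in EA.hy926 numbered 58 to 59 without each library, 48 to 65 at other limits on CPM or counts, and 22 at 1 CPM per kilobase, with 0 the other way in each case. Clusters numbered 12 at a gap of 250 kb and 9 at 1 Mb. With library totals the log2FC changed sign for ZNF77 (-0.018), ZNF507 (-0.022) and ZNF776 (-0.037), and ZNF580 passed the fold threshold (-1.06). Without EA.hy926 replicate 5, ZNF254 changed sign (0.0036, with a range of -0.058 to 0.0036 without each library). Of 42 named members tested, the other 37 kept direction and call in each of the 17 fits that tested them, and the demand for 10 counts gave no value for members with fewer in any library. Deviations of same-numbered libraries from the mean of their line correlated at -0.0228 to 0.0389, so no pairing by replicate number was seen. Counting noise could hide a weak shared effect in this check. Members below 3 counts may be transcribed below this depth.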
